A study of Homo sapiens with 2 samples.

Results

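Of the SOX genes, which encode transcription factors with an HMG box that binds and bends DNA, 10 were followed: SOX2, SOX4, SOX5, SOX6, SOX7, SOX9, SOX11, SOX12, SOX13 and SOX17. The members were every probe set that the platform annotation gives to 1 of these genes alone, which were 36 of the 41091 probe sets with exactly 1 gene, and 10 of 19775 genes. No probe set named a listed gene together with another gene. The study compared MKN28 cells labelled as overexpressing Sox2, which the labels say were made with a lentivirus carrying Sox2 and puromycin selection, with MKN28 cells labelled control (titled NC). The labels do not say what virus, if any, the control cells received, nor whether either culture was a single clone. MKN28 is an established human gastric adenocarcinoma line that is registered as misidentified, its cells being those of the gastric line MKN74. Total RNA of 1 sample a group was read on 1 Affymetrix array each, with 54675 probe sets. There were no replicates, so no difference below has a replicate error or a test.

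SOX proteins share a DNA-binding HMG box and are sorted into subgroups by sequence. SOX2, of subgroup SOXB1, keeps stem cells undifferentiated together with POU factors such as OCT4, and in the developing gut it marks the foregut and stomach against the intestine. SOX4, SOX11 and SOX12 form SOXC, activators of progenitor cells. SOX5, SOX6 and SOX13 form SOXD, which lack a transactivation domain and pair through a coiled coil. SOX9, of SOXE, drives cartilage and testis development and is found in intestinal crypts. SOX7 and SOX17 form SOXF, factors of endothelium, and SOX17 also of the endoderm.

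None of the 10 genes differed at least 2-fold between the arrays at any of their 36 probe sets, where 3.29% of all probe sets with 1 gene did. Of the 18 member probe sets past a filter on dim signal (the higher of the 2 intensities at or above 34.25, the median of all values), 0 were at least 2-fold higher or lower, against a background of 1.97% higher and 0.523% lower among all such probe sets with 1 gene. By the brightest probe set of each gene, all 10 genes passed the filter and 0 reached 2-fold, against 2.05% higher and 0.645% lower of all genes so read. At 1.5-fold, 1 member probe set was higher and 1 lower of the 18, where the background was 6.37% higher and 3.41% lower. By gene, 0 were higher and 1 (SOX17) lower at 1.5-fold, against 6.46% and 3.77% of all genes. The probe sets so counted, SOX6 223865_at and SOX17 230943_at, reached the filter only in the array where each was higher. Their passing it is therefore not independent of their gap. Over all 36, differences (array labelled Sox2 minus array labelled control, log2) ran from -0.59 to 0.86. Their median was -0.021 and their robust SD 0.26, against -0.0003 and 0.32 over all probe sets with 1 gene. Members lay above 0 at 16 probe sets and below it at 20, and 49.9% of all probe sets with 1 gene lay above 0. This split depends on the scale: with the arrays scaled on their spike-in RNAs, which moves the median of all probe sets with 1 gene up by 0.75, all 36 members lay above 0 and 3 of the genes (SOX2, SOX6 and SOX7) passed 2-fold, as did 20.3% of all probe sets past the filter.

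The levels of the members lay near those of the array at large. Of the 36 probe sets, 1 reached the 95th percentile of all values (159) in at least 1 array, against 5.83% of all probe sets. Past the filter were 18 of 36, against 55.8% of all probe sets with 1 gene. The median level percentile of the members was 47.8, against 52.2 for all probe sets with 1 gene. Ranks below count from 1, the brightest of the 54675 probe sets by the mean log2 intensity of the arrays. Binding strength varies from probe set to probe set, so a rank does not order transcripts by abundance.

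**Figure D1:**
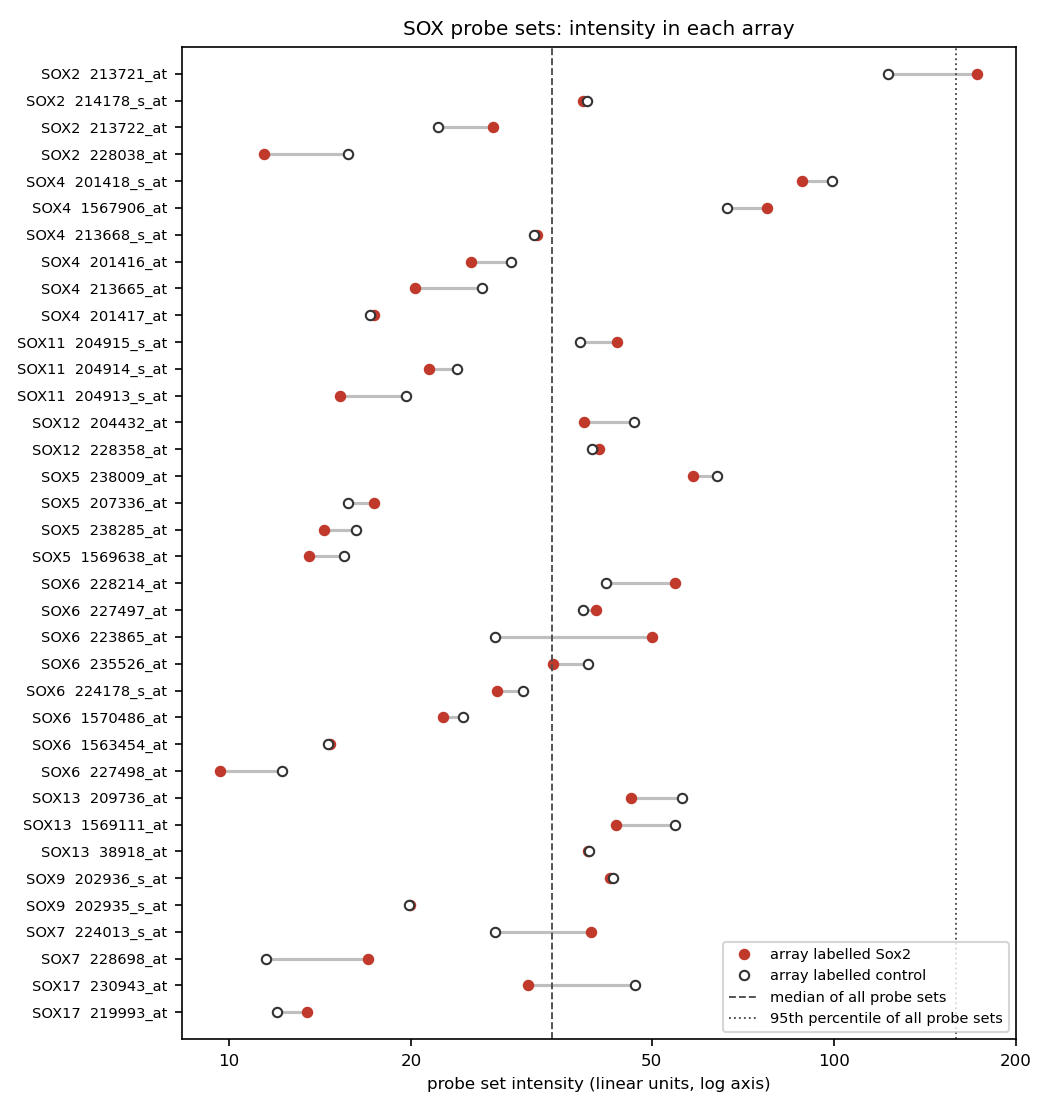
Intensity of each of the 36 SOX probe sets (log axis) in the Sox2-labelled array (filled) and the array labelled control (open), with vertical lines at the median of all values (34.25) and at their 95th percentile (159). SOX2 213721_at alone passes the 95th percentile, and 18 of the 36 lie below the median in both arrays.

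Some facts of the whole arrays belong beside these levels. The median intensity was 34.25 in the Sox2-labelled array and 34.26 in the control, and across probe sets, which are no independent replicates, log2 intensities had a Pearson r of 0.964. Spike-in RNAs with a poly-A tail, which are of bacterial origin and mixed into the sample, were lower in the Sox2-labelled array at 24 of 24 probe sets, with a median of -0.75 on the log2 scale. Of 7 epithelial marker genes that would define this line, EPCAM read 4.96 in the Sox2-labelled array and 6.32 in the control, below the filter. CLDN4 alone passed the 95th percentile, in the control array by its brightest probe set. Its other probe set read 53.9 in the Sox2-labelled array and 56.7 in the control. KRT18, with the largest difference of this list among brightest probe sets past the filter, read 70.1 in the Sox2-labelled array and 88.5 in the control. The brightest probe sets of these 7 genes summed to 460 in the Sox2-labelled array and 498 in the control. Of 7 gastric marker genes, 5 passed the filter and 0 the 95th percentile. Of 7 fibroblast and mesenchymal genes, 4 passed the 95th percentile by their brightest probe set, among them VIM at 5833 in the Sox2-labelled array and 4288 in the control. The other VIM probe set read 10.7 in the Sox2-labelled array and 9.45 in the control. The other COL1A1 and COL3A1 probe sets also lay under the 95th percentile, while FN1 passed it by several. Apart from that of VIM, the probe sets of this list past that percentile have names ending in _x_at. That ending marks probes that may bind other transcripts, so these levels are uncertain. The brightest FN1 probe set without it read 79.5 in the Sox2-labelled array and 62.5 in the control. Of 3 leukocyte genes with a probe set, 1 passed the filter, as did 4 of 4 endothelial genes, and 0 of either list passed the 95th percentile. By brightest probe sets past the filter, the largest leukocyte difference was that of CD3D, at 117 in the Sox2-labelled array and 95.8 in the control. The largest endothelial one was that of KDR, at 36.45 in the Sox2-labelled array and 49.99 in the control. The part that these signals play in the SOX values was not tested.

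With 1 sample a group, the spread between cultures that a difference would have to be read against was not measured. A spread between probe sets of the same gene within the 2 arrays was taken in its place. Taken from 3471 genes with exactly 2 probe sets past the filter, it had a robust SD of 0.28 for a single probe set on the log2 scale. Cultures and arrays add variation that this value does not hold. Spread also depended on level, so probe sets with 1 gene were put in 20 equal bins of mean level. The robust SD in the bins that hold members ran between 0.23 and 0.48. It is a spread between genes in the same 2 arrays, not between replicates, and may hold real differences. Of the 36 member probe sets, 25 lay within 1 robust SD of the median of their bin. At 2 or more robust SDs lay 2 of 36, against 7.56% of all probe sets with 1 gene. The 2 were single probe sets of SOX6 and SOX17.

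SOX2, the gene named in the label, is on chromosome 3 at 181711925 to 181714436 (GRCh38.p14) and had 4 probe sets, which disagreed. Its brightest, 213721_at, read 172 in the Sox2-labelled array and 123 in the control, a difference of 0.49 or 1.40-fold. That is 1.56 robust SDs from the median of its level bin, and it ranked 3095. At that level, 13.2% of probe sets differed by 1.5-fold or more. Probe set 214178_s_at read 38.44 in the Sox2-labelled array and 39.05 in the control (-0.023, rank 24262). The other two were under the filter and lay on opposite sides of 0. Probe set 213722_at read 27.4 in the Sox2-labelled array and 22.2 in the control (0.31, rank 34846), and 228038_at read 11.4 in the Sox2-labelled array and 15.7 in the control (-0.46, rank 44475). The mean over the 4 probe sets was 0.077, with an SD between them of 0.42. The gaps of SOX2 were thus small and went both ways, and this gene did not settle the label of the array. Where each probe set lies relative to the transferred sequence was not analysed here. In RNA from a whole culture, fewer cells carrying a transcript and less of it per cell cannot be told apart.

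Of the 1393 genes on the array with 4 probe sets, the median range of log2 differences was 0.71, and the range of SOX2 was 0.95.

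Windows before annotated starts of the genes were searched for the letters that SOX2 and its partners are known to bind. From each gene with a match 1 window is shown, because SOX2 is the factor the study set out to raise. RefSeq promoter windows (GRCh38.p14) were searched for 6 of the 10 genes (SOX2, SOX4, SOX12, SOX5, SOX6, SOX13), with 10 windows, 5 of them at alternative starts of SOX6. SOX7 and SOX17 were set aside before the search, so their absence is not a result. The 250 bases before each start were searched on both strands for AACAAT (a SOX motif), ACAAAG (bound by SOX and TCF factors) and ATGCAAAT (the octamer of POU factors). Of all 35116 windows of this length, 8.98% held AACAAT, 13.7% ACAAAG and 1.63% the octamer. AACAAT was found for SOX5 and SOX6, ACAAAG for SOX2 and SOX6, and the octamer for SOX12, and no matches overlapped. By window, 4 of the 10 member windows held AACAAT, 2 held ACAAAG and 1 the octamer. Apart from that of SOX5, the windows with AACAAT were all of SOX6, at starts inside the span of that gene. Their G and C content was 27.2% to 40.8%. The window just outside the SOX6 span, with 58.8%, held no match. Windows of the same gene are not independent. These shares were not tested against those of all windows. Of the SOX6 windows, the one with the most matches is shown. Sequences run 5′ to 3′ on the gene's strand, and capitals mark the matches.
SOX2, chr3:181711675-181711924, plus strand: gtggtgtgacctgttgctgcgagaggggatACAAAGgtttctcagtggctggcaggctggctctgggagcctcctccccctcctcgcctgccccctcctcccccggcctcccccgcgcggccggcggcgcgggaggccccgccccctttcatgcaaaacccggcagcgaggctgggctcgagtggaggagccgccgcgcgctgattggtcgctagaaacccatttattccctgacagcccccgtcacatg
SOX12, chr20:325302-325551, plus strand: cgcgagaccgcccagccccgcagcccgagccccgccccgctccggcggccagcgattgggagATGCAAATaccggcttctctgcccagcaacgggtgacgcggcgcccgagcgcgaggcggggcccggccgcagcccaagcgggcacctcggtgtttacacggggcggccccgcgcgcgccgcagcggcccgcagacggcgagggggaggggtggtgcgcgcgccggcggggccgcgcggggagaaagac
SOX5, chr12:24562492-24562741, minus strand: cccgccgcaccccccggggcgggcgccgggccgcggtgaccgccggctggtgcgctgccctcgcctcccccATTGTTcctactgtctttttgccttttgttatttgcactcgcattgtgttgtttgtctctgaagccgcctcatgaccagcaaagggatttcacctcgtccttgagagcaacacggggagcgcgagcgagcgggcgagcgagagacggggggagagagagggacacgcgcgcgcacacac
SOX6, chr11:16356547-16356796, minus strand: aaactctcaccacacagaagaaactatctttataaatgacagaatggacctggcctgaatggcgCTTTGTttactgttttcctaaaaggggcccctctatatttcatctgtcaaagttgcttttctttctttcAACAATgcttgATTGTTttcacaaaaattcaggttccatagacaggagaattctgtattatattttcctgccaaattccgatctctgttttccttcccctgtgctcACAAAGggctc
The SOX2 match begins 220 bases before the start, the SOX12 octamer 188 and the SOX5 match 179. The starts used for SOX5 and SOX6 lie inside the spans of those genes, which reach to 24562650 and 16738477. The 4 SOX6 matches begin 186, 117, 106 and 11 bases before the start used for SOX6. A match describes letters only. On the deposited scale 0 of the 10 genes reached 2-fold, so matches could not be set against differences.

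**Figure D2:**
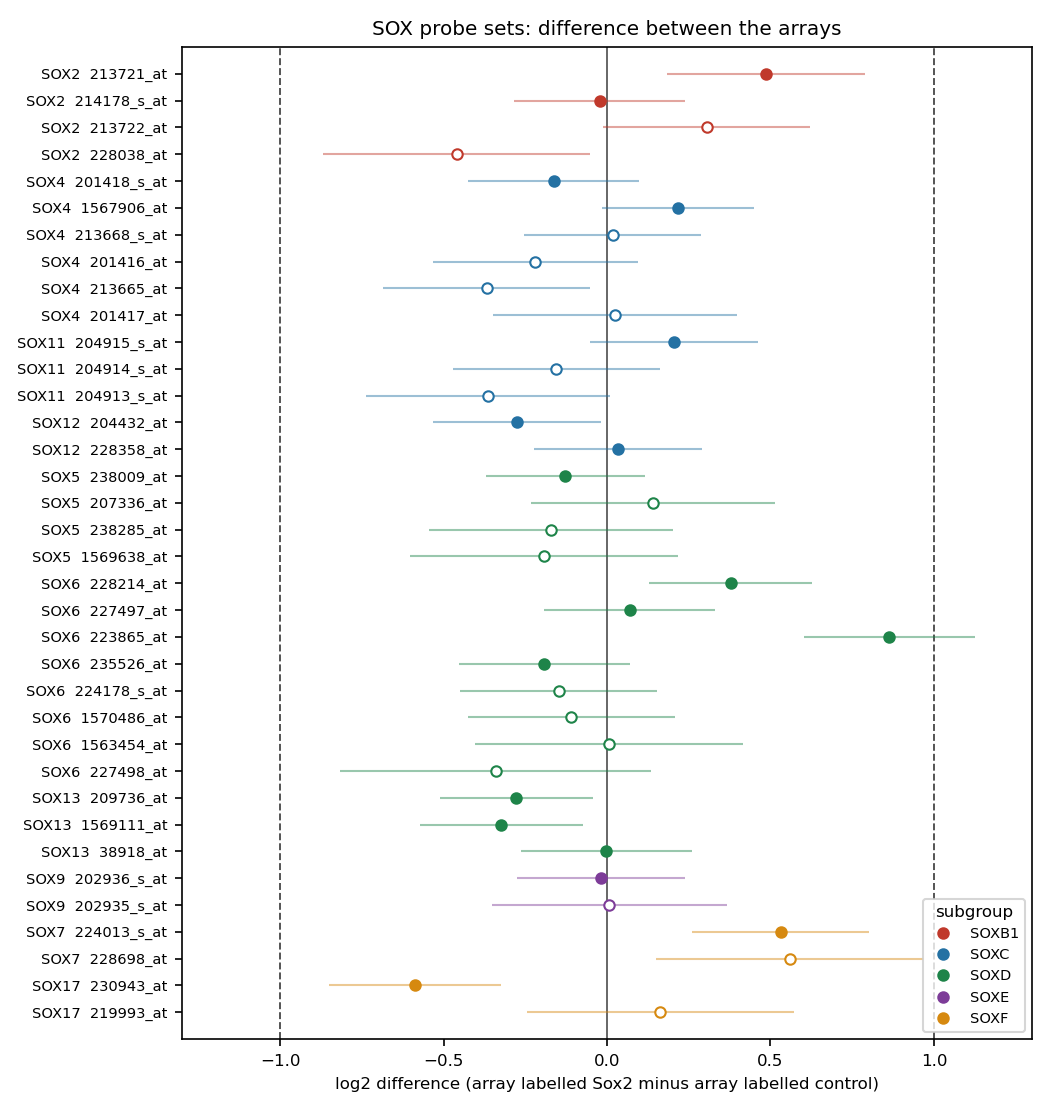
Log2 difference (array labelled Sox2 minus array labelled control) of each SOX probe set, coloured by subgroup. Filled points passed the filter on dim signal, open ones did not, bars are plus and minus the robust SD of all probe sets at the same level, and dashed lines mark 2-fold, which no point crosses between -0.59 and 0.86.

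In SOXC, 11 probe sets of 3 genes had a median difference of -0.16 and ran from -0.37 to 0.22, with 5 above 0 and 6 below. SOX4, a factor often abundant in carcinomas (chromosome 6, 21593751 to 21598619), had the brightest probe set of the subgroup. That one, 201418_s_at, read 88.7 in the Sox2-labelled array and 99.25 in the control (-0.16, rank 6403). Its 1567906_at leaned the other way, at 77.4 in the Sox2-labelled array and 66.6 in the control (0.22, rank 10163). The remaining 4 were under the filter. Of these, 213668_s_at read 32.3 in the Sox2-labelled array and 31.9 in the control (0.017, rank 28876), and 201417_at read 17.4 in the Sox2-labelled array and 17.1 in the control (0.023, rank 41017). Both were nearly equal in the arrays. Probe set 201416_at read 25.1 in the Sox2-labelled array and 29.2 in the control (-0.22, rank 32782). The lowest of the gene by difference, 213665_at, read 20.3 in the Sox2-labelled array and 26.2 in the control (-0.37, rank 36097). SOX4 thus had 3 probe sets on each side of 0.

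SOX11, a factor of neural progenitors (chromosome 2, 5692384 to 5701385), had 3 probe sets, 1 of them past the filter. That one, 204915_s_at, read 43.9 in the Sox2-labelled array and 38.1 in the control (0.20, rank 22933). The other two leaned the opposite way, with 204914_s_at at 21.4 in the Sox2-labelled array and 23.8 in the control (-0.16, rank 36488). Probe set 204913_s_at read 15.25 in the Sox2-labelled array and 19.6 in the control (-0.36, rank 40971). SOX12, the third SOXC gene (chromosome 20, 325552 to 330224), had both probe sets past the filter and close in level. Its 204432_at read 38.7 in the Sox2-labelled array and 46.8 in the control (-0.27, rank 21919). Its 228358_at, at 40.8 in the Sox2-labelled array and 39.85 in the control (0.035, rank 23243), showed no such gap.

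In SOXD, 15 probe sets of 3 genes had a median difference of -0.13, with 5 above 0 and 10 below, and held the widest range, from -0.34 to 0.86. SOX6, a partner of SOX9 in cartilage that in mouse also acts in red cell and muscle development (chromosome 11, 15966449 to 16738477), had 8 probe sets, 4 past the filter. Its 223865_at read 50.1 in the Sox2-labelled array and 27.55 in the control (0.86 or 1.82-fold, rank 25257), the largest difference among the 36. It lay 3.36 robust SDs from the median of its bin, where 3.85% of probe sets differed by 1.5-fold or more. The other SOX6 probe sets did not share that size. The brightest, 228214_at, read 54.7 in the Sox2-labelled array and 42.05 in the control (0.38, rank 18937). Probe set 227497_at read 40.4 in the Sox2-labelled array and 38.5 in the control (0.070, rank 23821), and 235526_at read 34.3 in the Sox2-labelled array and 39.2 in the control (-0.19, rank 25544).

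The 4 dim SOX6 probe sets were level or lower. Probe set 224178_s_at read 27.7 in the Sox2-labelled array and 30.7 in the control (-0.15, rank 31110), and 1570486_at read 22.6 in the Sox2-labelled array and 24.3 in the control (-0.11, rank 35801). The dimmest pair was 1563454_at, at 14.7 in the Sox2-labelled array and 14.6 in the control (0.0069, rank 43333), and 227498_at, at 9.66 in the Sox2-labelled array and 12.2 in the control (-0.34, rank 46909). With 4 probe sets on each side of 0, the mean for SOX6 was 0.066 and the SD between probe sets 0.39. Its range of 1.20 compares with a median range of 1.12 over the genes with 8 probe sets.

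SOX5, the closest relative of SOX6 (chromosome 12, 23529504 to 24562650), had 1 of 4 probe sets past the filter. That one, 238009_at, read 58.6 in the Sox2-labelled array and 64.0 in the control (-0.13, rank 13262). Among the dim ones, 207336_at read 17.3 in the Sox2-labelled array and 15.7 in the control (0.14, rank 41661) and leaned upward. Probe set 238285_at read 14.4 in the Sox2-labelled array and 16.2 in the control (-0.17, rank 42788), and 1569638_at read 13.6 in the Sox2-labelled array and 15.5 in the control (-0.19, rank 43448). All 4 lay under 1 robust SD of their bins. SOX13, known from T cell development in mouse (chromosome 1, 204073115 to 204127743), was the one member with every probe set past the filter and none above 0. Its 209736_at read 46.3 in the Sox2-labelled array and 56.1 in the control (-0.28, rank 17446). Its 1569111_at read 43.65 in the Sox2-labelled array and 54.6 in the control (-0.32, rank 18478), and 38918_at read 39.2 in the Sox2-labelled array and 39.3 in the control (-0.0022, rank 23912). The first 2 lay 1.11 and 1.25 robust SDs from their bins' medians and the last beside it.

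SOX9, the SOXE member (chromosome 17, 72121020 to 72126416), was nearly equal in the arrays by both probe sets. Its 202936_s_at read 42.6 in the Sox2-labelled array and 43.2 in the control (-0.019, rank 21699). Its 202935_s_at, under the filter, read 19.9 in the Sox2-labelled array and 19.8 in the control (0.0065, rank 38856). Their differences spanned 0.025, the narrowest span of the 10 genes.

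The SOXF genes leaned in opposite directions by their brightest probe sets. SOX7 (chromosome 8, 10723768 to 10730511), known from endothelial development, was the one member with every probe set above 0. Its 224013_s_at read 39.7 in the Sox2-labelled array and 27.5 in the control (0.53 or 1.45-fold, rank 28167), and 228698_at, under the filter, read 17.0 in the Sox2-labelled array and 11.5 in the control (0.56 or 1.47-fold, rank 43900). These lay 1.95 and 1.35 robust SDs from the medians of their bins. SOX17 (chromosome 8, 54457935 to 54460892), a factor of definitive endoderm, had the largest difference downward of the 36. Its 230943_at read 31.2 in the Sox2-labelled array and 46.9 in the control (-0.59, rank 24565), 2.18 robust SDs from its bin's median. Its dim probe set, 219993_at, read 13.5 in the Sox2-labelled array and 12.0 in the control (0.16, rank 45098) and did not share that direction.

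Probe sets of the same gene lay on both sides of 0 for 8 of the 10 genes. SOX7 was 1 of 4 members with 2 probe sets whose pair lay on 1 side, against 50.8% of all genes with 2. SOX13 was 1 of 2 members with 3 probe sets, against 27.4% of all genes with 3. Of the members with 4 probe sets, 0 of 2 were on 1 side, against 14.9%. SOX4 and SOX6, with 6 and 8, were split, as were all but 4.29% and 4.76% of genes with as many.

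**Figure D3:**
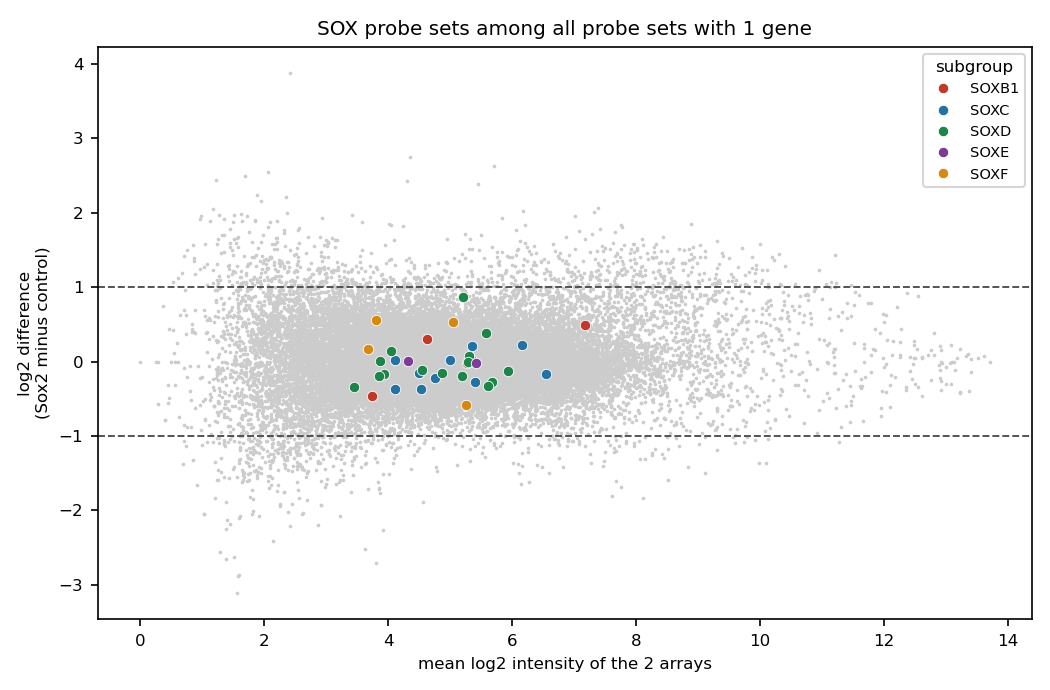
Log2 difference (Sox2 minus control) against mean log2 intensity for all 41091 probe sets with 1 gene (grey) and the 36 SOX probe sets (coloured by subgroup), with dashed lines at 2-fold. The SOX probe sets lie in the low and middle part of the level range and inside the 2-fold lines.

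Genes that work with the SOX proteins or are known targets of them were read beside the members, from lists chosen with earlier results of these arrays known. Of 9 other SOX genes, 4 passed the filter and 0 reached 2-fold, with a median of -0.081, against -0.0032 over all genes read by their brightest probe set. Among the brightest probe sets past the filter, the largest difference was that of SOX1, a neural relative of SOX2, at 61.6 in the Sox2-labelled array and 54.85 in the control (0.17). A second SOX1 probe set past the filter read 39.3 in the Sox2-labelled array and 50.8 in the control (-0.37). SOX18, an endothelial relative of SOX7 and SOX17, differed by more but lay under the filter, at 18.04 in the Sox2-labelled array and 27.1 in the control (-0.59).

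Of 14 SOX2 partners and pluripotency factors past the filter, 0 reached 2-fold, 10 lay above 0 and 4 below, with a median of 0.22. PRDM14, a germ cell and pluripotency regulator, differed most, at 83.1 in the Sox2-labelled array and 119 in the control (-0.52). NANOG, a partner of SOX2 in stem cells, read 93.9 in the Sox2-labelled array and 67.0 in the control by its brightest probe set (0.49). Its other probe set, under the filter, read 15.4 in the Sox2-labelled array and 25.3 in the control (-0.71), the other way. POU5F1, which encodes OCT4, had no probe set assigned to it alone and was not analysed here.

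Of 15 foregut and gastric genes past the filter, 0 reached 2-fold, with 6 above 0, 9 below and a median of -0.049. GKN1, a secreted protein of the gastric lining, differed most, at 34.85 in the Sox2-labelled array and 24.7 in the control (0.50), next to the filter. Of 16 cartilage targets and partners of SOX9 and the SOXD proteins, 13 passed the filter. By the brightest probe set 0 of these reached 2-fold, with a median of 0.087. MATN3, under the filter, read 1.57 in the Sox2-labelled array and 3.85 in the control (-1.29). A second RUNX2 probe set past the filter read 92.7 in the Sox2-labelled array and 54.55 in the control (0.77), while its brightest differed by -0.044. COL9A2, a cartilage collagen chain, differed most by brightest probe sets past the filter. It read 71.1 in the Sox2-labelled array and 109 in the control (-0.61), while its second probe set differed by -0.10.

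Of 12 SOXC targets and partners past the filter, 0 reached 2-fold by the brightest probe set, with 8 above 0, 4 below and a median of 0.081. TUBB3, the neuronal beta tubulin, read 4515 in the Sox2-labelled array and 2609 in the control (0.79). Its second probe set read 1853 in the Sox2-labelled array and 906 in the control (1.03, 2.05-fold). Both names end in _x_at, which marks probes that may bind other transcripts, and tubulin genes are close copies, so this value is uncertain. Of 13 SOXF targets and partners, 1 was at least 2-fold higher and 0 lower, with a median of 0.040. That gene was EFNB2, the ephrin of arterial endothelium, at 1116 in the Sox2-labelled array and 492 in the control (1.18, 2.27-fold). Its dimmer probe set read 46.7 in the Sox2-labelled array and 34.4 in the control (0.44). Beta-catenin and TCF genes, which SOX proteins can bind or oppose, passed the filter at 12. By the brightest probe set 0 of these reached 2-fold, with 7 above 0, 5 below and a median of 0.15. GSK3B, a kinase that marks beta-catenin for destruction, read 845 in the Sox2-labelled array and 452 in the control (0.90). Its next brightest probe set read 495 in the Sox2-labelled array and 238 in the control (1.06, 2.08-fold), and its other 2 past the filter differed by 0.31 and 0.0068.

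TCF7L2, a TCF factor that binds beta-catenin, is added after its values were seen. Its brightest probe set read 106 in the Sox2-labelled array and 57.2 in the control (0.88). A dimmer one read 60.25 in the Sox2-labelled array and 22.1 in the control (1.45, 2.73-fold), the widest gap past the filter in any of these lists. It reached the filter in the Sox2-labelled array only. The other TCF7L2 probe sets past the filter lay on both sides of 0, at 0.87, 0.65, -0.021 and -0.31. Those at 0.87 and 0.65 have names that end in _x_at.

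Spread differed with level among these genes. In the brightest of the 20 level bins, which holds the named probe sets of EFNB2, GSK3B and TUBB3, the robust SD was 0.55 and 13.0% of probe sets differed at least 2-fold. In the bin that holds both SOX6 223865_at and this dimmer TCF7L2 probe set the same values were 0.26 and 0.487%. A count of 2-fold differences therefore carries a different background for bright genes than for the SOX genes.

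**Figure D4:**
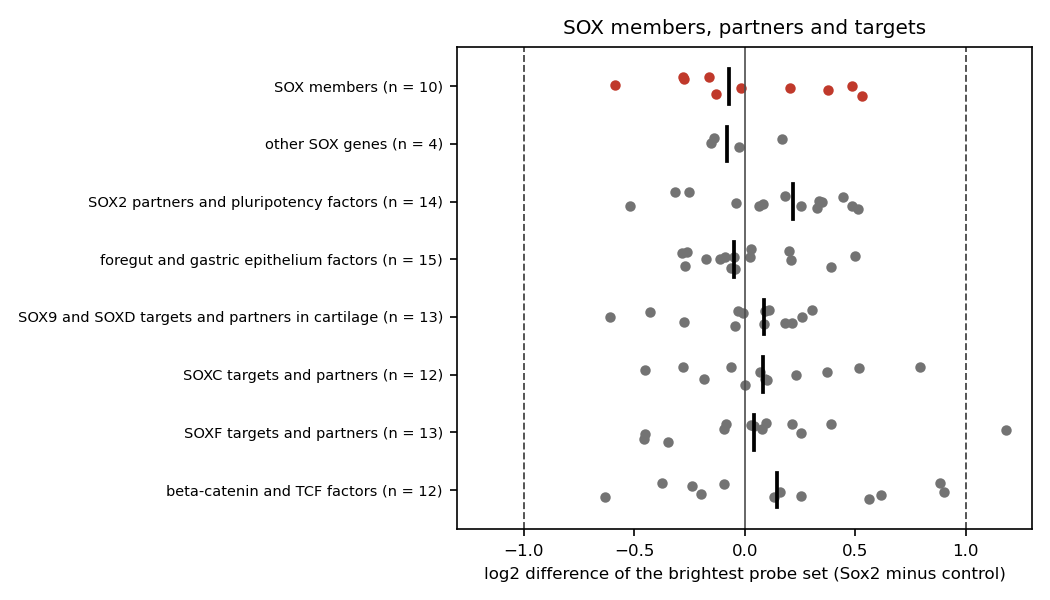
Log2 difference (Sox2 minus control) of the brightest probe set of the 10 SOX members and of each listed gene past the filter, with each list's median as a black bar and 2-fold as dashed lines. EFNB2, at 1.18, is the one gene beyond 2-fold, and the SOX members have a median of -0.073.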

How the data were processed

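Gene expression was measured on 1 array of MKN28 cells labelled Sox2 and 1 labelled control. The authors deposited 1 linear intensity per probe set and array. Per the submitters' processing notes, RMA was used. Its version, settings and the step that left values linear are not given in the sources. Quantile normalization still changed the deposited values (SOX2 from 0.49 to 0.44), so the arrays did not share the same distribution as deposited. Intensities were taken to log2 as deposited and subtracted, Sox2 minus control, with no further scaling. Probe sets were named from the platform annotation, with symbols updated through gene identifiers of the GRCh38.p14 RefSeq table. A probe set with several genes was left out.

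With 1 array a group no test is possible, so a difference of at least 2-fold was counted among probe sets whose higher value reached the median of all values. The number of arrays limits the precision. Named are all probe sets of the 10 SOX genes, of each other list the genes past 2-fold (up to 3) or the 1 with the largest difference, and NANOG and POU5F1. EPCAM, CLDN4, TCF7L2, SOX18, second probe sets and transcripts of SOX loci were named after their values were seen. The members and lists were chosen with earlier results of these data known. Likeness between genes could not be ranked on 2 arrays. Counting and the spread by level were run on simulated data with known changes, and only the spread was held to a limit. The simulated spread fell steadily with level, while that of these arrays rose again in the brightest bin. Alternatives covered scaling, an offset of 16, the filter, the choice of probe set and the fold. Promoter windows came from RefSeq (GRCh38.p14), with members on chromosome 8 (SOX7 and SOX17) left out by choice. Python 3.11.15, numpy 2.4.6, pandas 2.3.3, SciPy 1.17.1, statsmodels 0.14.6 and matplotlib 3.10.9 were used.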

Additional observations from a re-analysis of the deposited data

How the results depend on the processing

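No paired analysis was possible because each group has 1 array, and none could be left out. Median centring, lowess centring, quantile normalization and the offset kept the SOX2 difference between 0.44 and 0.49 and the member median between -0.020 and -0.010, with 0 genes and 0 probe sets at 2-fold. Other filters and choices of probe set put the median between -0.073 and 0.044 and also left 0. Scaling on the poly-A spike-ins shifted all probe sets with 1 gene up by 0.75. SOX2 then differed by 1.24 and the member median was 0.73, with 3 genes (SOX2, SOX6, SOX7) and 4 of their probe sets at least 2-fold higher, against 20.3% of all probe sets past the filter. Relative to all probe sets, SOX2 stayed at 0.49 and the member median at -0.020. The mean over all SOX2 probe sets was 0.077. At 1.5-fold, 1 gene (SOX17) and 2 probe sets were counted, each past the filter in 1 array only. A rule of 2 robust SDs at the same level, chosen after seeing the data, also gave 2. Of the member probe sets, 18 of 36 passed the filter at the median, against 55.8% of all probe sets with 1 gene.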

Other observations

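Transcripts of SOX loci other than the coding genes were read at low levels and are given as values. SOX2-OT, the long non-coding RNA whose gene surrounds SOX2, read 2.61 in the Sox2-labelled array and 5.05 in the control (log2 difference -0.95), at percentile 1.65 of level. SOX9-AS1, an antisense transcript beside SOX9, read 24.7 in the Sox2-labelled array and 23.65 in the control by one probe set (0.062) and 6.77 in the Sox2-labelled array and 10.5 in the control by another (-0.64). SOX5P1, a pseudogene of SOX5, read 18.2 in the Sox2-labelled array and 33.3 in the control (-0.87), by a probe set whose name ends in _x_at. All lay below the median of all values in both arrays.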
